A study of Mus musculus with 17 samples.

Results

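The retinoid genes followed here, 8 in all, were measured on 17 oligonucleotide arrays of mouse brain after experimental stroke. They were the retinaldehyde dehydrogenases Aldh1a1, Aldh1a2 and Aldh1a3, the rodent Aldh1a1 paralogue Aldh1a7, the retinoic acid binding proteins Crabp1 and Crabp2, the retinoic acid receptor Rarb and the retinol transporter Stra6. Members were taken by the gene symbol of the platform annotation. Of the 8 genes, 7 had a probe set here and Rarb had none, so that 8 of the 12488 probe sets, which cover 8252 distinct symbols, were followed, 2 of them for Aldh1a1. Aldh1a3 was chosen for its measured pattern, with signal in untreated ischemic pools and in 2 single brains, so its values are a description and carry no test.

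The tissue was white and grey matter of the middle cerebral artery's territory. There were 5 groups. The single treated brains (n = 5 arrays of 1 brain, numbered 11, 12, 13, 14 and 16) and the treated ischemic pools (n = 3 arrays of 6 brains each) had 1 h of ischemia, the catalytic antioxidant AEOL 10150 by vein and 6 h of reperfusion. The ischemic pools (n = 3) had the same ischemia and reperfusion without the drug. The drug control pools (n = 3) were taken 6 h after AEOL 10150 without ischemia, and the control pools (n = 3) 6 h after saline. The labels give no strain, sex, age or dose, and no vehicle for the ischemic pools. For 2 pools the title and the description differ: the description of drug control pool 1 names saline, and that of treated ischemic pool 1 names no drug. Groups follow the titles, and values of Aldh1a3 and Aldh1a2 that change with groups from the descriptions are given both ways.

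Retinoic acid is made from vitamin A in steps. Stra6 carries retinol into cells, alcohol and retinol dehydrogenases oxidise it to retinaldehyde, and the Aldh1a enzymes oxidise retinaldehyde irreversibly to retinoic acid. Crabp proteins bind retinoic acid in the cytoplasm, Cyp26 enzymes degrade it, and RAR and RXR receptors bind it in the nucleus and act on target genes such as Rarb and Cyp26a1. In the adult brain Aldh1a1 is known from dopamine neurons of the midbrain and their striatal axons, and Aldh1a2 from the meninges.

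Promoter sequence shows how close the paralogues are and what a retinoic acid response element looks like. RefSeq windows of 300 bases (GRCm38.p6) were found for 6 of the 8 members; Aldh1a3 and Crabp2 had no entry. The first pair below is the last 120 bases before the start of Aldh1a1 (chr19:20601848-20601967, plus strand) and of Aldh1a7 (chr19:20727557-20727676, minus strand), with the longest identical stretch, 65 bases, in capitals.
Aldh1a1: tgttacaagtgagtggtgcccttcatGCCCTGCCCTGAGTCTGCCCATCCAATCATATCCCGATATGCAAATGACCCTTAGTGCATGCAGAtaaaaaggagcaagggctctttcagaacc
Aldh1a7: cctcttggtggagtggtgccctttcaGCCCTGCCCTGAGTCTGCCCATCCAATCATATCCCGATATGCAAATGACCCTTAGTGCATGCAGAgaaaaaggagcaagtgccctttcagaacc
The second pair is 60 bases each from upstream of Cyp26a1 (chr19:37697748-37697807, plus strand), which was measured, and of Rarb (chr14:16575491-16575550, minus strand), which was not. The capitals begin 32 bases before the start of Cyp26a1 and 52 before that of Rarb. The Cyp26a1 stretch runs up to the start, and the Rarb stretch ends short of it. Capitals mark a direct repeat of GTTCA with 6 bases between the copies, read on either strand.
Cyp26a1: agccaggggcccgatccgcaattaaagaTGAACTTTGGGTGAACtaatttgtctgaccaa
Rarb: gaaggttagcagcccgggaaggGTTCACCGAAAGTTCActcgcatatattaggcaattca
The repeat was found in 25 of 32851 windows (0.0761%) and, among the 6 members with a window, only in that of Rarb. It was picked after these sequences had been seen, and a match is a description of the letters. The identical stretch concerns the promoters only; the array probes of Aldh1a1 and Aldh1a7 were not compared.

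Values are deposited intensities, rescaled so that each array had the same mean of its values between the 2nd and the 98th percentile, 2500. They have no read depth, and the number of arrays limits their precision. Between 15.2% and 19.3% of an array's values lay below 0. Values under 109.5, the 25th percentile of the pooled arrays, were set to that floor (6.77 on the log2 scale) and have no order among themselves. On deposit, 10 arrays were on 1 common scale, whereas treated ischemic pools 2 and 3 and the 5 single brains were on others. Comparisons with single brains also cross that difference, and both cannot be told apart. In bulk tissue, fewer cells of a type and less RNA per cell cannot be told apart either. Neuron and astrocyte markers were bright on all arrays: the mean log2 intensity was 13.4 to 14.1 for 6 neuronal genes and 13.0 to 13.7 for 6 astrocytic genes.

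Aldh1a3 had intensities of 124, 296, -75.4, -67.3 and 16.7 in single treated brains 11, 12, 13, 14 and 16. It had 62.1, 107 and 64.0 in the treated ischemic pools and 324, 429 and 342 in the ischemic pools. It had -109, 108 and -27.3 in the drug control pools and 59.7, 50.6 and 54.2 in the control pools. The ischemic pools thus stood above the floor in 3 of 3 arrays, the other pools in 0 of 9 and the single treated brains in 2 of 5. By the descriptions, treated ischemic pool 1 belongs to the untreated ischemic pools, which then stood above the floor in 3 of 4 arrays. Against the treated ischemic, drug control or control pools, all at the floor, the mean of the ischemic pools was at least 3.31-fold higher (8.50 ± 0.22 on the log2 scale, SD, n = 3). The values nearest to the floor were 108 in drug control pool 2 and 107 in treated ischemic pool 2 below it, and 124 in brain 11 above it. Brain 11 was therefore near the floor, and brain 12 at 296 was the only single brain near the ischemic pools.

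**Figure D1:**
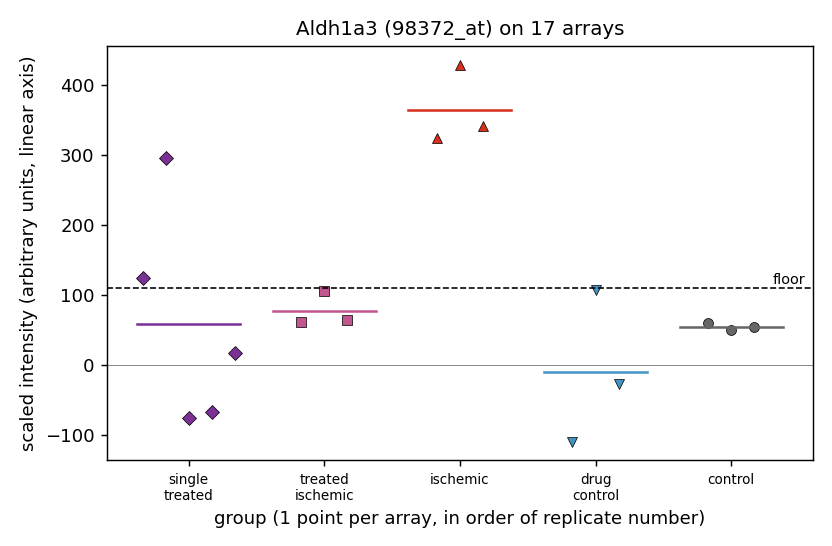
Rescaled intensity of the Aldh1a3 probe set (linear vertical axis, arbitrary units) on the 17 arrays in 5 groups, 1 point per array, with a line at each group's mean and a dashed line at the floor of 109.5. The 3 ischemic pools sit between 324 and 429, and brain 12 at 296 is the next highest array.

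These levels are low on this array. In the ischemic pools, 34.1% to 39.1% of an array's probe sets were dimmer than Aldh1a3. Of 12422 probe sets without array controls, 3 were above the floor in all 3 ischemic pools and in no other pool, against 2 for the treated ischemic, 1 for the drug control and 0 for the control pools. The other ones of the ischemic set were Emc3, a subunit of a complex that inserts proteins into the endoplasmic reticulum membrane, and the testis pseudogene Tspy-ps. Emc3 had 119, 185 and 146 in the ischemic pools and at most 102 in any other pool. Tspy-ps had 187, 188 and 119 in the ischemic pools and at most 68.7 in any other pool. Both lay closer to the floor than Aldh1a3 did.

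The mean of the other probe sets called for ischemia was high in all single brains. These 21 probe sets, called in ischemic against control pools beside Aldh1a3, had mean log2 intensities of 11.72, 11.80, 11.59, 12.00 and 11.63 in brains 11, 12, 13, 14 and 16. Their means were 11.80 to 11.94 in the treated ischemic pools, 12.11 to 12.13 in the ischemic pools, 10.01 to 10.28 in the drug control pools and 9.69 to 9.97 in the control pools. Every single brain and every treated ischemic pool was thus well above all non-ischemic pools for that set, while Aldh1a3 was at the floor in 3 of the 5 brains and in all 3 treated pools. Brain 14 had the highest mean of the set among the single brains and an Aldh1a3 intensity below 0. The set was picked by its gap between ischemic and control pools in these same arrays, and Aldh1a3 by its pattern. Their contrast is therefore a description and carries no test.

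Likeness to Aldh1a3 was measured by Pearson's r on floored log2 values, over arrays that share the floor and, for some, the deposited scale. Over the 17 arrays the 5 highest among 9314 named probe sets were Tspy-ps (r = 0.76), Emc3 (0.75), the neutrophil chemokine Cxcl2 (0.73), the vesicle transport protein Bet1 (0.73) and an immunoglobulin kappa variable segment (0.73). Over the 12 pools they were the cyclin Ccna2 (0.93), Emc3 (0.88), Tspy-ps (0.86), Bet1 (0.82) and the transcriptional regulator Zfp503 (0.82). Cxcl2 was above the floor in 4 of the 5 single brains, 3 of 3 ischemic pools and 4 of the 9 other pools. Among the other retinoid members the highest r over 17 arrays was that of Crabp1 (0.39), followed by the dim probe set of Aldh1a1 (0.26), and the lowest that of Aldh1a2 (-0.17). None of the other members thus had a pattern close to that of Aldh1a3.

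Across the pools, limma's moderated test over 10259 probe sets called 22 probe sets (0.214%) in ischemic against control pools, 9 (0.0877%) in treated ischemic against drug control pools, 1 (0.00975%) in treated ischemic against ischemic pools and 1 (0.00975%) in drug control against control pools, at an adjusted p under 0.05. The difference between both ischemia responses had 0 calls (0%), with 213 probe sets at an unadjusted p under 0.05, and ischemia over both drug arms had 46 (0.448%). Of the 7 probe sets of members other than Aldh1a3, 0 were called by limma in any of these 6 comparisons, and 0 had an unadjusted p under 0.05. Aldh1a3, chosen by these contrasts, was among the 22, the 46 and was the 1 probe set called in treated ischemic against ischemic pools, where it was lower in the treated pools and where 3.82% of the probe sets did not overlap. With groups from the descriptions none of these 3 Aldh1a3 differences passed, and the one between ischemic and control pools was 1.29 with a limma adjusted p of 0.401. Nothing is read from those calls.

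Aldh1a1, the retinaldehyde dehydrogenase of dopamine neurons, was not called in any of the 9 comparisons run by the brighter of its 2 probe sets, called the bright one here. It had intensities of 6089, 10538, 5740, 13009 and 12273 in single treated brains 11, 12, 13, 14 and 16, and 9947, 8537 and 8418 in the treated ischemic pools. It had 10063, 9740 and 6989 in the ischemic pools, 8695, 8349 and 7956 in the drug control pools and 10121, 10103 and 7282 in the control pools. All groups overlapped, and the lowest and the highest array were both single brains. The log2 difference was -0.04 between ischemic and control pools, with a 95% interval of -0.50 to 0.42. It was 0.02 between treated ischemic and ischemic pools, with an interval of -0.44 to 0.48. Both adjusted p values were 1 by limma.

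The spread of Aldh1a1 was widest among the single brains, 2.27-fold from lowest to highest, against 1.18-fold in treated ischemic pools, 1.44-fold in ischemic pools, 1.09-fold in drug control pools and 1.39-fold in control pools. A pool averages 6 brains, and the numbers of arrays differ. Tyrosine hydroxylase (Th), the rate-limiting enzyme of dopamine synthesis, had log2 intensities of 10.66, 11.50, 10.49, 12.33 and 12.29 in brains 11, 12, 13, 14 and 16, and Aldh1a1 had 12.57, 13.36, 12.49, 13.67 and 13.58. The brains thus stood in the same order for both genes. Dopa decarboxylase (Ddc), the next enzyme of that pathway, had 10.47, 11.86, 10.79, 11.88 and 11.67, with brains 11 and 13 again lowest. In the 12 pools Th ran from 11.12 to 11.88, and ischemic pool 3 was the lowest pool for Aldh1a1 and among the highest for Th. Th and Ddc were picked after their values were seen, from 5 midbrain dopamine neuron markers measured here. The mean log2 intensity of the 5, Th and Ddc included, was 9.83, 10.02, 9.59, 10.36 and 10.54 in brains 11, 12, 13, 14 and 16. In the pools that mean ran from 9.58 to 10.81, so the brains lay within the range of the pools. Without Th and Ddc, the mean of the list stood higher in brain 11 than in brains 12 and 14, unlike Aldh1a1. The rest of that list, Nr4a2, Pitx3 and Slc6a3, was not set against Aldh1a1 gene by gene. How much midbrain or striatal tissue each sample held was not tested.

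The other Aldh1a1 probe set, called the dim one here, and Aldh1a7 were near the floor on several arrays and behaved unlike the bright one. The platform annotation pairs the dim probe set with Aldh1a1 but gives it no accession. It had 604, 496, 532, 159 and 627 in single treated brains 11, 12, 13, 14 and 16, and 492, 267 and 172 in the treated ischemic pools. It had 198, 409 and 1414 in the ischemic pools, 271, 309 and 822 in the drug control pools and 166, 118 and 638 in the control pools. In each of the ischemic, drug control and control groups, replicate 3 was thus the highest of the group, whereas for the bright probe set it was the lowest.

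Aldh1a7, a rodent paralogue of Aldh1a1, had 358, 156, 395, 152 and 285 in single treated brains 11, 12, 13, 14 and 16. It had 424, 346 and 196 in the treated ischemic pools and 211, 213 and 715 in the ischemic pools. It had 161, 317 and 472 in the drug control pools and 175, 124 and 177 in the control pools. The 3 ischemic pools all exceeded the 3 control pools, a lack of overlap that held for 7.08% of the probe sets tested in that comparison, in either direction. The log2 difference was 1.02 (SE 0.54; limma adjusted p = 1, unadjusted 0.0859), and without ischemic pool 3 it was 0.43.

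**Figure D2:**
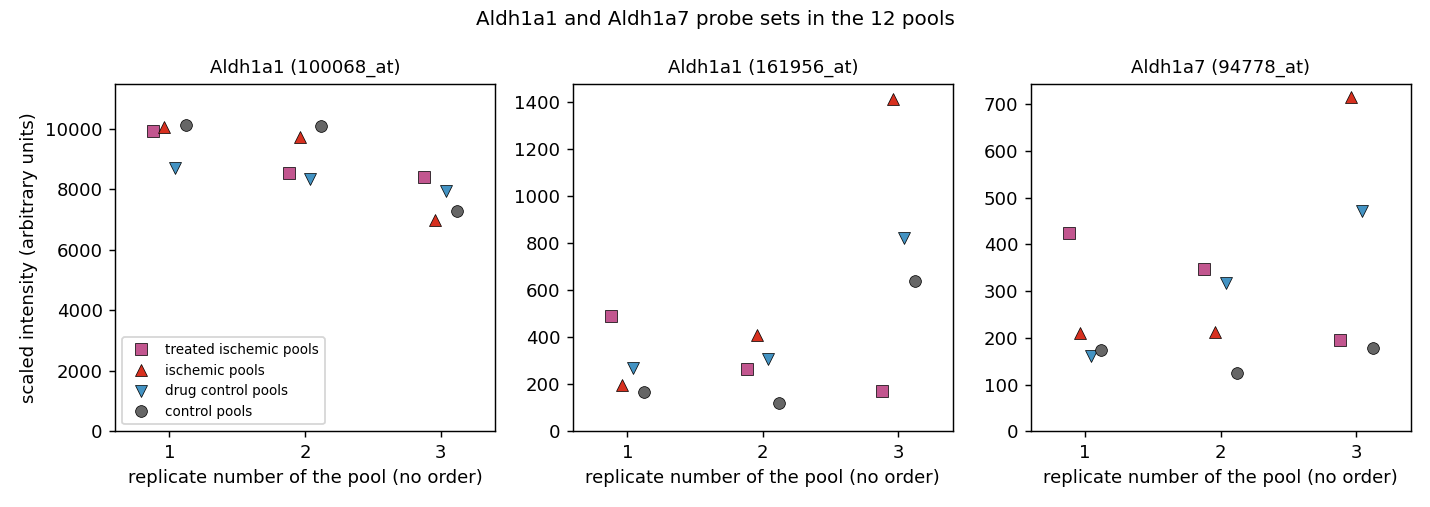
Rescaled intensity (linear axes from 0, arbitrary units) of the Aldh1a1 and Aldh1a7 probe sets in the 12 pools, by the replicate number of the pool, 1 point per pool. Replicate 3 of the ischemic, drug control and control pools is lowest for the bright Aldh1a1 probe set (left), between 6989 and 7956, and highest for the dim one (middle), between 638 and 1414.

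Replicate 3 of these groups also stood apart in the actin control. The ratio of its 3' to its 5' signal, a measure of RNA integrity, was 1.15 to 1.19 in replicate 3 of the ischemic, drug control and control pools, against 1.65 to 1.97 in replicate 1 and 1.33 to 2.14 in replicate 2. Treated ischemic pool 3, at 1.34, had neither the low ratio nor a high signal of the dim probe set. On other arrays the ratio and that signal did not go together. Treated ischemic pool 1 had a ratio of 1.68 and a signal of 492, and brain 11 had 1.60 and 604. Control pool 2 had 1.33 and 118. A link between the ratio and the signal of these probe sets was not tested. Over all 17 arrays the dim Aldh1a1 probe set correlated with Aldh1a7 (r = 0.74) and not positively with the bright one (r = -0.48), while Aldh1a7 and the bright one had r = -0.53. Whether the dim probe set or the Aldh1a7 probe set measures transcripts of 1 paralogue alone was not tested, and their values are uncertain for that reason.

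Aldh1a2, the retinaldehyde dehydrogenase of the meninges, had more signal in the single treated brains, compared with the drug control pools. It had 408, 243, 228, 538 and 327 in brains 11, 12, 13, 14 and 16, and -196, -49.7 and 288 in the treated ischemic pools. It had 154, -205 and -86.9 in the ischemic pools, 70.6, -83.6 and -280 in the drug control pools and 64.2, 194 and -113 in the control pools. All 5 single brains were above the floor, against 1 of 3 treated ischemic, 1 of 3 ischemic, 0 of 3 drug control and 1 of 3 control pools. The single brains did not overlap with the drug control pools, which held for 19.7% of the 10541 probe sets of that comparison, nor with the ischemic pools, which held for 16%, but they overlapped with the treated ischemic pools through pool 3.

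In the fit of all 17 arrays, limma called 125 probe sets (1.19%) in single treated brains against drug control pools, 14 (0.133%) against ischemic pools and 4 (0.0379%) against treated ischemic pools. Of the 7 probe sets of members other than Aldh1a3, 1 was called against the drug control pools, 0 against the ischemic pools and 0 against the treated ischemic pools. At an unadjusted p under 0.05 there were 2121, 1840 and 908 probe sets in these comparisons. The 1 called was Aldh1a2, with a log2 difference of 1.60 (SE 0.35, limma adjusted p = 0.0413). Since all drug control pools were at the floor, the mean of the single brains was at least 3.03-fold higher. Against the ischemic pools the log2 difference was 1.43 (SE 0.35, limma adjusted p = 0.107), and against the treated ischemic pools 1.13 (SE 0.35, limma adjusted p = 0.564), which did not pass.

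The Aldh1a2 call was not stable. Its limma adjusted p against the drug control pools was 0.0519 with groups from the descriptions, 0.0807 without the 2 arrays of unlike labels and 0.124 on a generalized logarithm without a floor. It was 0.0841 with the floor at the 20th percentile and 0.0524 with quantile normalization. It was 0.0691 to 0.124 when drug control pool 1, 2 or 3 or brain 11, 14 or 16 was left out. With groups from the descriptions the comparison with the ischemic pools passed instead (log2 difference 1.47, limma adjusted p = 0.0404). The single brains differ from the drug control pools in ischemia, in pooling and in the deposited scale at once, and these cannot be told apart here. Meningeal markers went with Aldh1a2 on some arrays and not on others. The mean log2 intensity of 9 meningeal genes was 11.00 to 11.52 in the single brains, 11.17 to 11.24 in the treated ischemic, 10.95 to 11.19 in the ischemic, 10.71 to 10.87 in the drug control and 10.92 to 10.98 in the control pools. All 9 were above the floor in the single brains and in the treated ischemic pools. Brains 11 and 13, with Aldh1a2 above the floor, had meningeal means of 11.03 and 11.00. Treated ischemic pools 1 and 2, with Aldh1a2 at the floor, had higher ones, 11.17 and 11.24. In single brains against drug control pools, the collagen gene Col3a1 was higher (log2 difference 1.79, limma adjusted p = 0.0274), and the other 8 did not pass. Of these 8, Col1a1 was at 1.52, Igf2 at 1.04, Ogn at 0.62, Ptgds at 0.34 and Dcn at 0.18. The collagen gene Col1a2 was at -0.81, Lum at -0.62 and Slc6a13 at -0.24. The part of meningeal tissue in the Aldh1a2 result was not tested.

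**Figure D3:**
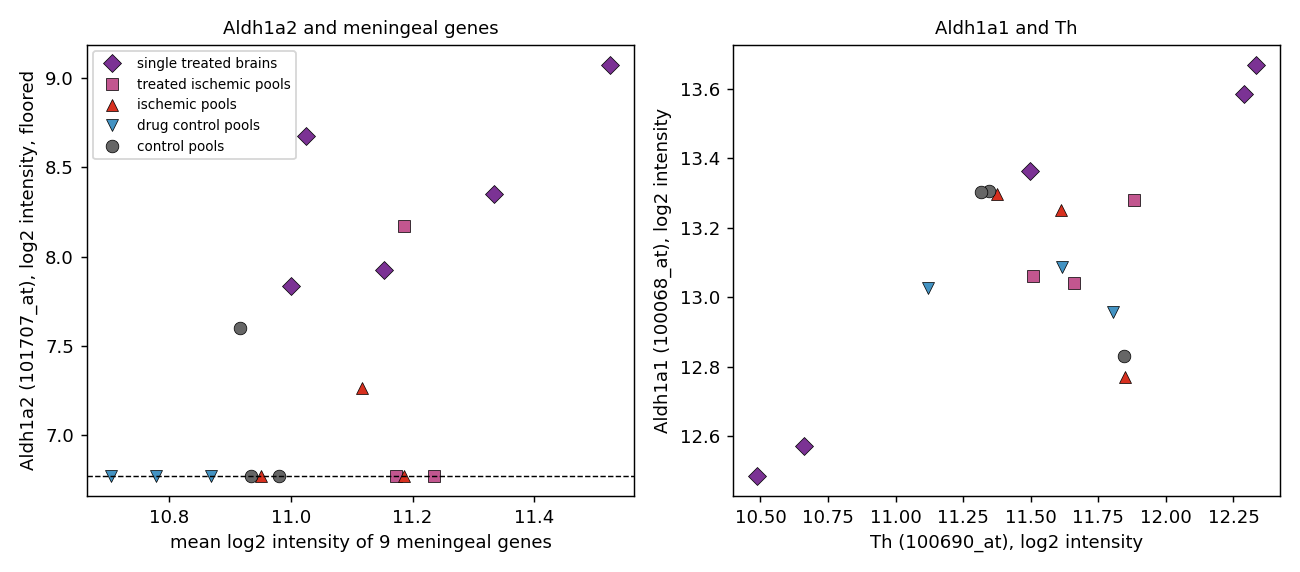
Left, log2 floored intensity of Aldh1a2 against the mean log2 intensity of 9 meningeal genes; right, log2 intensity of Aldh1a1 (bright probe set) against that of Th, with 1 point per array and the floor as a dashed line on the left. All 5 single treated brains lie above the floor for Aldh1a2, brain 14 is highest on both left axes, treated ischemic pool 3 lies above brains 12 and 13, and on the right they run from 10.49 to 12.33 for Th, wider than the 12 pools.

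The binding proteins were not called in any comparison. Crabp1 had 69.2, 58.1, 63.8, -11.0 and 49.96 in single treated brains 11, 12, 13, 14 and 16, and 116, 172 and 20.01 in the treated ischemic pools. It had 322, 241 and -26.3 in the ischemic pools, 134, 119 and 153 in the drug control pools and 128, 277 and 25.2 in the control pools. It was at the floor in all 5 single brains and above it in 9 of the 12 pools, and replicate 3 of the treated ischemic, ischemic and control pools was the one at the floor. The single brains thus did not overlap with the drug control pools, as held for 19.7% of the probe sets of that comparison, and there the log2 difference was -0.30 (SE 0.33, limma adjusted p = 0.634). Against the ischemic pools it was -0.90 (SE 0.33, limma adjusted p = 0.207).

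Crabp2, which carries retinoic acid to its receptor, was above the floor on all 17 arrays. It had 488, 445, 300, 457 and 465 in single treated brains 11, 12, 13, 14 and 16, and 316, 110 and 460 in the treated ischemic pools. It had 145, 495 and 130 in the ischemic pools, 289, 350 and 113 in the drug control pools and 239, 375 and 317 in the control pools. All groups overlapped, and the pools of 1 group spread up to 4.18-fold, in the treated ischemic pools. The log2 difference between ischemic and control pools was -0.54, with a 95% interval of -2.00 to 0.92. In single brains against ischemic pools it was 1.01 (SE 0.51, limma adjusted p = 0.319).

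Stra6, the receptor that takes up retinol from its plasma carrier, had 380, 329, 153, 74.2 and -30.9 in single treated brains 11, 12, 13, 14 and 16, and -328, -162 and 58.7 in the treated ischemic pools. It had -90.6, -233 and -534 in the ischemic pools, 3.2, 607 and -304 in the drug control pools and 224, 187 and -330 in the control pools. It was thus at the floor in all 6 ischemic pools, treated or not, and above it in 3 of the 5 single brains, 1 of 3 drug control pools and 2 of 3 control pools. The highest array was drug control pool 2. Ischemia over both drug arms gave a log2 difference of -0.71 (SE 0.40, limma adjusted p = 1.00, unadjusted 0.105), which did not pass.

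**Figure D4:**
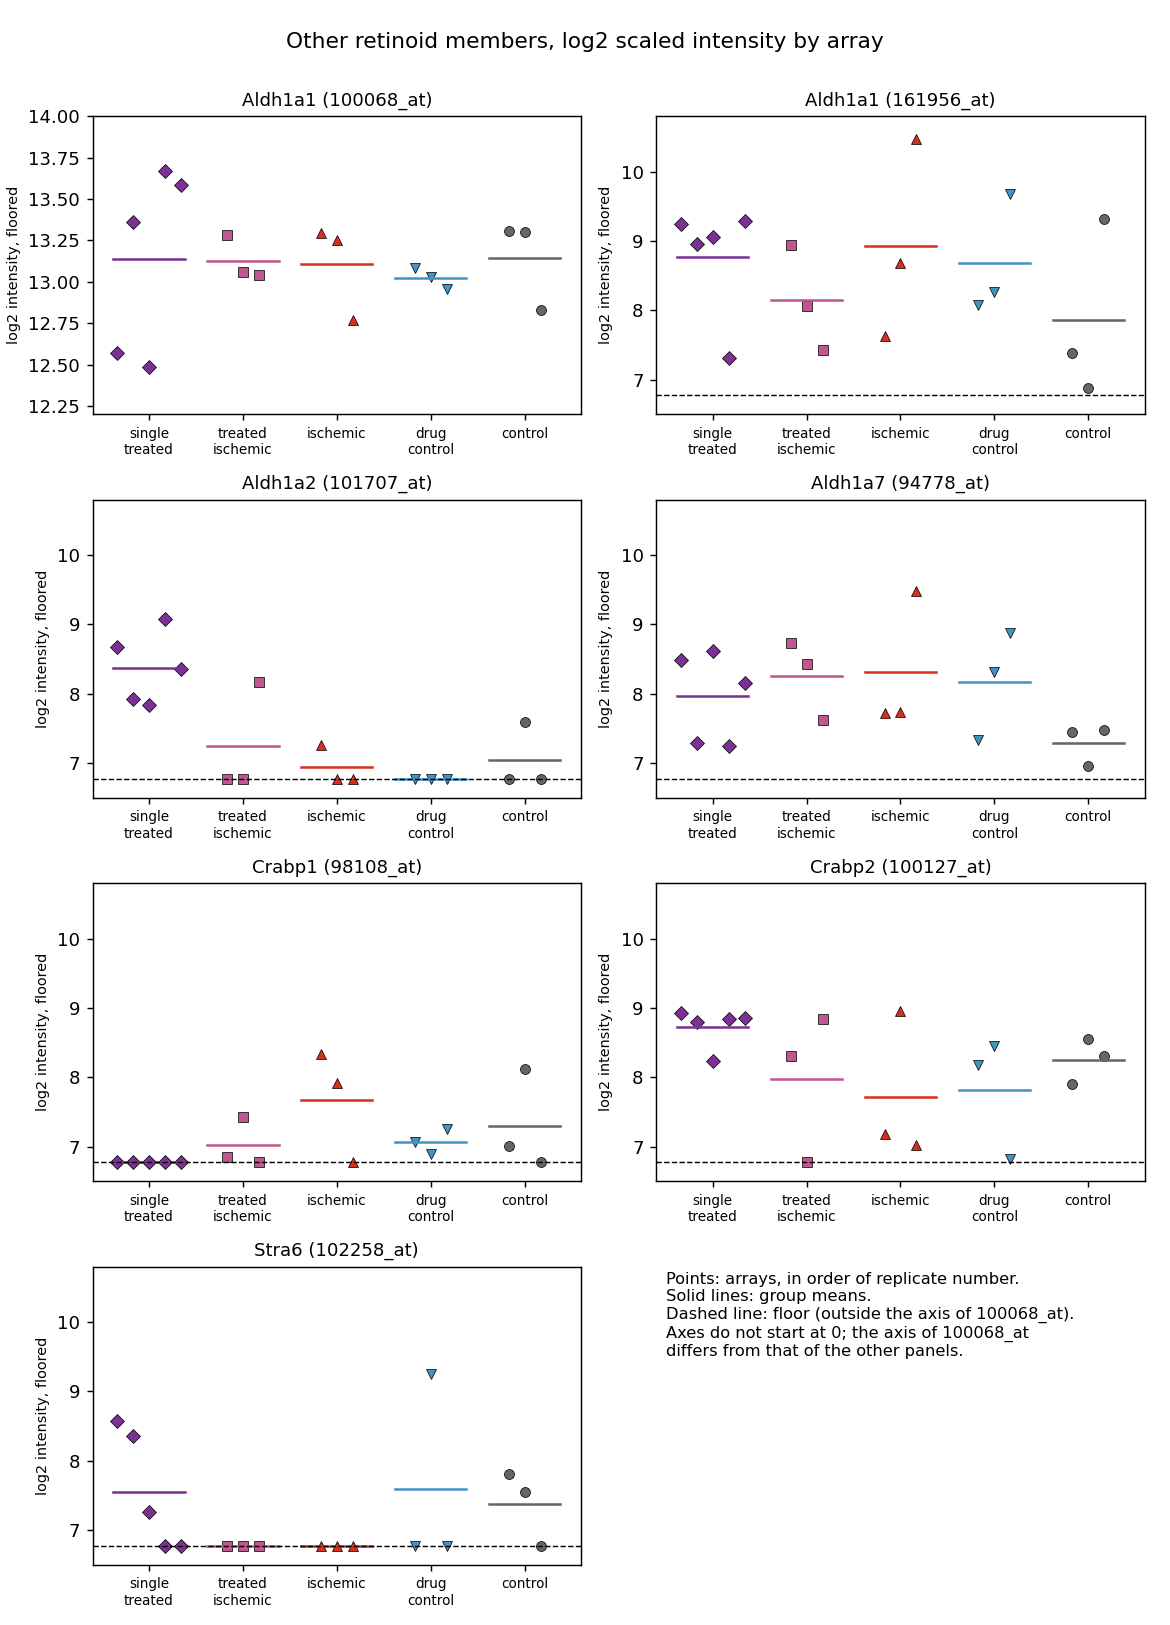
Floored log2 intensity of the other 7 probe sets on the 17 arrays, 1 point per array in order of replicate number, with a line at each group's mean and a dashed line at the floor of 6.77; axes do not start at 0. Aldh1a2 is above the floor in all 5 single treated brains and Crabp1 in none, and Stra6 is at the floor in all 6 ischemic pools.

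The precision differed between probe sets, by intervals that are not adjusted for the number of probe sets tested. In ischemic against control pools, the 95% interval of the log2 difference was 0.92 wide for the bright Aldh1a1 probe set and 3.66 wide for the dim one. Aldh1a3 and the other dehydrogenases share their control pools in these comparisons, so that their differences are not independent. Beside the value of 1.73 for Aldh1a3 in ischemic against control pools, the other members had values of 1.06 (Aldh1a1, dim), 1.02 (Aldh1a7), 0.38 (Crabp1), -0.04 (Aldh1a1, bright), -0.11 (Aldh1a2), -0.54 (Crabp2) and -0.60 (Stra6). In treated ischemic against ischemic pools the value was -1.73 for Aldh1a3, and for the others it ran from -0.78 (Aldh1a1, dim) to 0.30 (Aldh1a2).

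**Figure D5:**
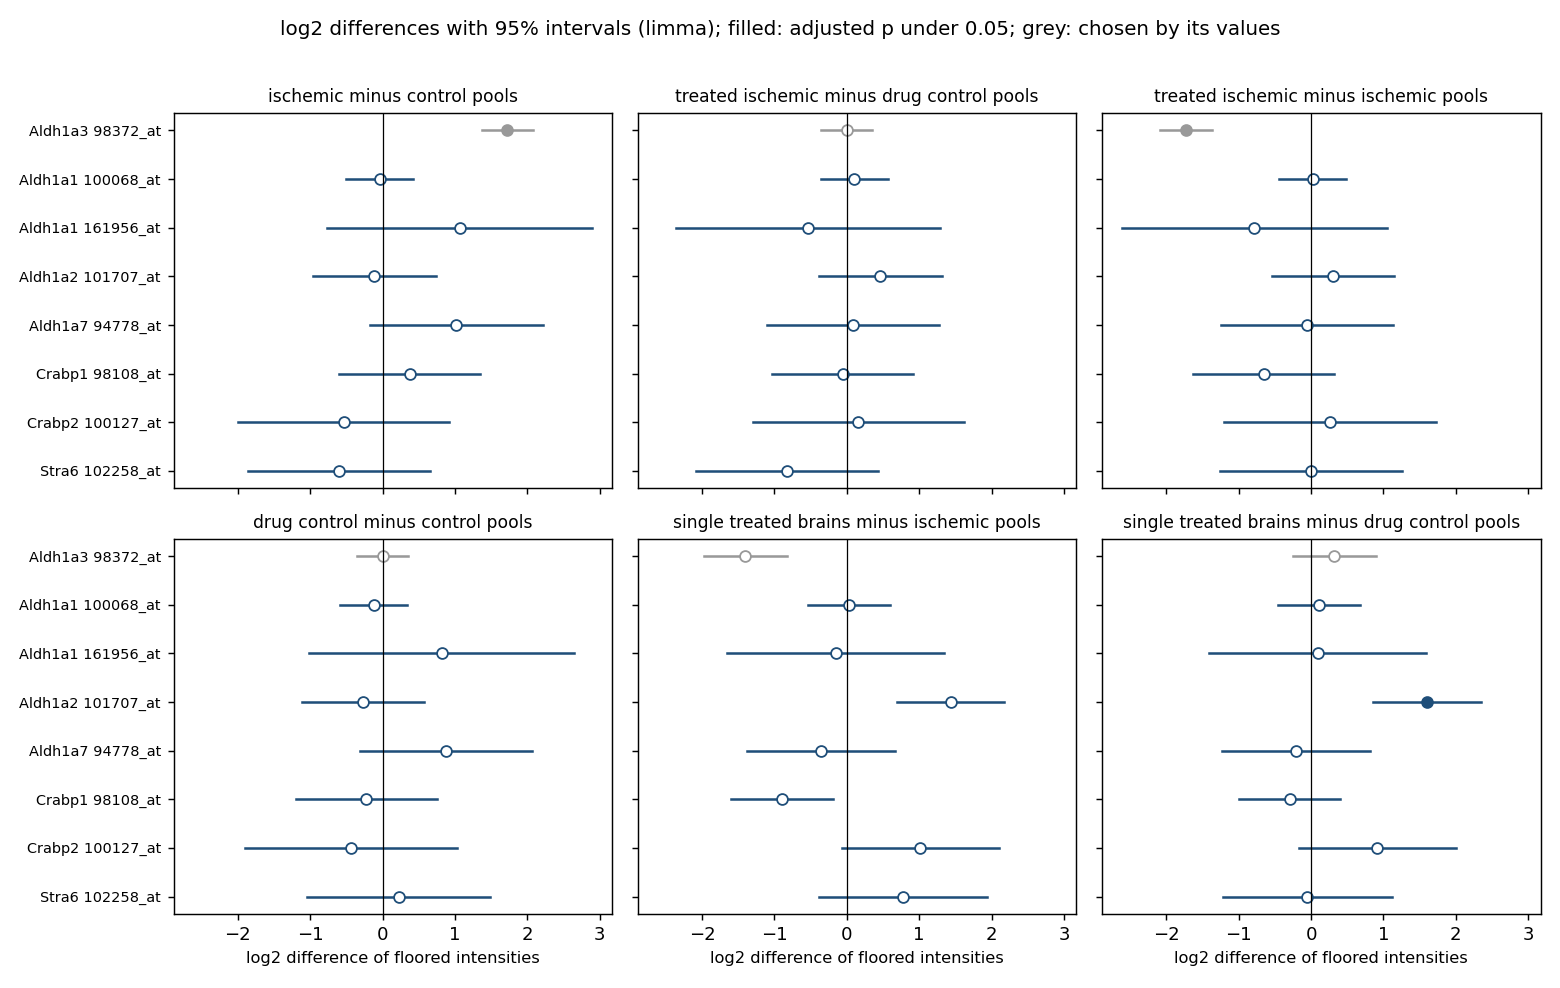
log2 differences of floored intensities with 95% limma intervals for the 8 probe sets in 6 comparisons, the group named first minus the other; filled points had an adjusted p under 0.05, and Aldh1a3, chosen by its values, is grey. Apart from Aldh1a3, the only filled point is Aldh1a2 in single treated brains minus drug control pools, at 1.60.

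The rest of the retinoid pathway was followed through 78 further listed genes, of which 51 had a probe set and 41 were tested in the pools by their brightest probe set. In ischemic against control pools 1 rose and 0 fell, and the median log2 difference was 0.14, beside 0.03 over all probe sets tested. In treated ischemic against drug control pools 1 rose and 0 fell, with a median of 0.04 beside -0.02. In treated ischemic against ischemic pools and in drug control against control pools 0 of 41 passed by limma. The shares of 1 in 41 rest on a single gene, and the medians were not tested against those of all probe sets.

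The gene that rose was Egr1, given here by 1 of its 2 tested probe sets. Egr1 is an immediate early transcription factor that many stimuli induce, listed here among the retinoic acid targets. It had 29104, 26497 and 26492 in the treated ischemic pools and 28468, 27262 and 32648 in the ischemic pools, against 6403, 9391 and 6866 in the drug control pools and 8870, 8385 and 6729 in the control pools. All 6 ischemic pools were thus far above all 6 others. The log2 difference was 1.89 (SE 0.20, limma adjusted p = 0.00559) without the drug and 1.88 (SE 0.20, limma adjusted p = 0.00786) with it. The single treated brains had 25636 to 33357, with a median of 27465. Egr1 was thus high in brains 13, 14 and 16 too, where Aldh1a3 was at the floor.

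Icam1, an endothelial adhesion molecule of the same list, had a log2 difference of 2.42 (SE 0.44, limma adjusted p = 0.0725) in ischemic against control pools and 1.22 (SE 0.44, limma adjusted p = 1) in treated ischemic against drug control pools. It passed over both drug arms, at 1.82 (SE 0.31, limma adjusted p = 0.0356). The dopamine receptor Drd2, also of that list, had -0.83 and -0.93 in the same pair of comparisons and did not pass there, and it fell in single treated brains against drug control pools by 1.19 on the log2 scale (SE 0.22, limma adjusted p = 0.0144). Drd2 is itself 1 of the 4 striatal neuron markers measured. The mean log2 intensity of the other 3, Penk, Rasgrp2 and Tac1, was 11.37 to 12.67 in single brains, 11.53 to 12.71 in treated ischemic and 12.00 to 12.49 in ischemic pools, against 12.67 to 13.01 in drug control and 12.56 to 13.11 in control pools. Their part in the Drd2 values was not tested.

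Enzymes before the Aldh1a step gave no call. Of 17 retinol oxidation and retinaldehyde reduction genes, 11 had a probe set and 8 were tested in the pools. The retinaldehyde reductase Dhrs3 had a log2 difference of 0.39 (SE 0.17, limma adjusted p = 1) in ischemic against control pools, and the retinol dehydrogenase Rdh7 had -0.67 (SE 0.31, limma adjusted p = 1) in treated ischemic against ischemic pools. Rdh13, by 1 of its 2 tested probe sets, was above the floor in 1 of 5 single brains and 1 of 3 treated ischemic pools. It was above it in 0 of 3 ischemic, 0 of 3 drug control and 2 of 3 control pools. Rdh5, an 11-cis-retinol dehydrogenase known from the eye and named here after its values were seen, was not tested in the pools because only 2 were above the floor. It had -468, 398, 687, 168 and 786 in single treated brains 11, 12, 13, 14 and 16 and -270, 498 and 758 in the ischemic pools, and it was at the floor in all 9 other pools.

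Among the other aldehyde dehydrogenases 5 of 13 were tested and 0 were called in the pools. The mitochondrial enzyme Aldh2 had a log2 difference of 0.64 (SE 0.48, limma adjusted p = 1) in ischemic against control pools, the fatty aldehyde dehydrogenase Aldh3a2 had 0.45 (SE 0.24, limma adjusted p = 1) and the proline synthesis enzyme Aldh18a1 had 0.46 (SE 0.46, limma adjusted p = 1). Aldh2, Aldh3a2 and Aldh18a1 had 3, 2 and 2 probe sets tested, and each value is from the one with the smallest p. For these genes the brightest probe set was another one, and the median of the list uses the brightest. In that comparison the median of the list was 0.00 beside 0.03 over all probe sets tested. This was the lowest of the lists. The median was 0.31 for retinoic acid targets, 0.22 for uptake, binding, storage and cleavage and 0.16 for clearance. It was 0.15 for retinol oxidation and retinaldehyde reduction and 0.10 for receptors and coregulators.

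Retinol carriers and storage genes likewise gave 0 calls in 8 tested. Transthyretin (Ttr), the choroid plexus protein that carries the plasma retinol binding protein, had 6291, 9489 and 8070 in the treated ischemic pools and 6886, 9565 and 8654 in the ischemic pools, against 4285, 6089 and 4357 in the drug control pools and 4855, 12166 and 7266 in the control pools. Among the single brains it had 10.9 in brain 11, at the floor, and 7216 to 15803 in the other 4. The mean log2 intensity of 3 other choroid plexus genes, Folr1, Kl and Slc4a5, was 6.85 in brain 11 and 8.72 to 9.87 in the other brains, and 1 of the 3 was above the floor in brain 11. Brain 11 was also one of the 2 single brains with Aldh1a3 above the floor, but near it at 124. The other, brain 12 with Aldh1a3 at 296, had the highest choroid plexus mean of the single brains. Over the 4 choroid plexus genes measured, Ttr included, that mean was 10.89 in brain 12 and 6.83 in brain 11. A link between Aldh1a3 and choroid plexus signal was not tested.

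The cellular retinol binding protein Rbp2, known from the intestine, had 30.0, 193 and 564 in the ischemic pools and 63.3, 54.2 and 31.8 in the control pools, with a log2 difference of 1.06 (SE 0.51, limma adjusted p = 1). Lipoprotein lipase Lpl, which frees retinyl esters from lipoproteins, had -0.78 (SE 0.53, limma adjusted p = 1) in the same comparison. That value is from 1 of its 2 tested probe sets.

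Clearance and receptors complete the pathway. Cyp26a1, whose promoter carries the repeat shown above, had 62.0, 212, 215, -39.8 and 197 in single treated brains 11, 12, 13, 14 and 16, and 165, 231 and 36.0 in the treated ischemic pools. It had 125, 65.7 and 351 in the ischemic pools, 76.7, 115 and 146 in the drug control pools and 224, -18.9 and 58.9 in the control pools. All groups overlapped around the floor, and the log2 difference of ischemic against control pools was 0.28 (SE 0.47, limma adjusted p = 1). Cyp2s1, a cytochrome of the same list, had 0.05 (SE 0.36, limma adjusted p = 1). Of 13 receptors and coregulators 7 were tested and 0 called in the pools. In ischemic against control pools Rxrb was at 0.24 (SE 0.27), Rxra at 0.67 (SE 0.50) and the coactivator Ncoa3 at 0.48 (SE 0.29). Each had a limma adjusted p of 1, and Rxra is given by 1 of its 2 tested probe sets.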

How the data were processed

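RNA of 17 mouse brain samples was measured on arrays of 1 design. The authors deposited linear intensities, 1 for each probe set of an array, some below 0. Their software and scaling are not given in the sources used. The mean between the 2nd and 98th percentiles was already 2500 on 10 arrays, and the other 7 were brought to it. Values under the floor of 109.5 were set to it before log2 was taken. A probe set was tested when 3 or more arrays of the fit exceeded the floor, which left 10259 for the pools and 10541 for all arrays; 66 array controls were left out.

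Differences were tested by linear models in limma 3.58.1 under R 4.3.3, over the 12 pools for the comparisons between pools and over 17 arrays for those with single brains, with two-sided p values adjusted by Benjamini-Hochberg over all probe sets of a comparison; the code was tested on simulated data. Groups come from the titles, and for single brains from the descriptions. Nothing says that pools came from separate experiments, so the p values concern the spread between these arrays.

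Members and gene lists were chosen with earlier results of these data known. The text names every member and each listed gene that passed in a comparison of pools, otherwise up to 3 of a list. Those had the smallest p in the 5 comparisons of pools other than ischemia over both drug arms. Each is given by its probe set with that smallest p, whereas list counts and medians use each gene's brightest probe set. The 5 probe sets most correlated with Aldh1a3 over 17 arrays and over 12 pools are named too. Egr1, Icam1 and Drd2 were also named in other comparisons, and Th, Ddc, Rdh5, the striatal and choroid plexus markers and the meningeal genes were named after their values were seen.

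Replicate numbers are shared by the pooled groups. The deviations of same-numbered pools correlated at 0.33 to 0.57 among control, drug control and ischemic pools, and at -0.34 to 0.40 with the treated ischemic pools, so the numbers do not pair all groups, and what a number marks is not labelled. Symbols were those of the platform annotation, of which 10855 probe sets had 1, 396 several and 1237 none, and 10839 were matched to RefSeq by Entrez number. Promoter windows were copied from RefSeq (GRCm38.p6).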

Additional observations from a re-analysis of the deposited data

Results flagged for a closer look

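In the group of 5 single treated brains, 2 of the 7 probe sets other than that of Aldh1a3 had 1 array whose gap to its nearest neighbour was large for the group's range, by Dixon's 95% critical value; chance flags about 1 in 20 groups. The dim Aldh1a1 probe set was low in brain 14, at 7.32 on the log2 scale. Crabp2 was low in brain 13, at 8.23. Crabp1, at the floor in all 5 single brains, had no range and could not be flagged. The pooled groups, with 3 arrays each, were not examined this way.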

How the results depend on the processing

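Of 72 member differences 4 were called, 3 of Aldh1a3 and 1 of Aldh1a2, and these calls were lost in 26 of the 57 values under other settings. The 68 that were not called, most of them far from the threshold, gained a call in 3 of 1104 values. Settings that left a probe set untested are in neither count. In the pools Aldh1a3 was untested when any 1 ischemic pool was left out, because only the 3 ischemic pools exceeded the floor. With the floor at the 40th percentile the 4 called differences were all untested. Since Aldh1a3 was chosen by its values in these arrays, its adjusted p values carry no test and only describe the settings. Aldh1a3 depended on the floor, on the labels and on the scale. In treated ischemic against ischemic pools its limma adjusted p was 1 with groups from the descriptions, 0.152 with the scale set as a block, 0.138 without the 2 arrays of unlike labels and 0.0515 to 0.0682 without any 1 treated ischemic pool. Over both drug arms it was 1.00, 0.0839 and 0.0782 in the first 3 of these. With the floor at the 40th percentile (458) it was above it in 0 single brains and 0 ischemic pools. With the floor at the 20th percentile (36.4), chosen after seeing the data, it was above it in 3 treated ischemic, 1 drug control and 3 control pools; with quantile normalization, or each array's own 25th percentile as floor, it was above it in 1 drug control pool. Without a floor, on a generalized logarithm also chosen after seeing the data, its difference between ischemic and control pools was 2.06 with a limma adjusted p of 0.488. A floor at the 10th percentile was not run, because that percentile was below 0.

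Counts of called probe sets changed with the settings. In ischemic against control pools, 22 became 13 with quantile normalization, 35 with the replicate block and 11 without the 2 arrays of unlike labels. In treated ischemic against drug control pools, 9 became 16 with the higher floor, 1 with the scale set as a block and 3 without those arrays. In treated ischemic against ischemic pools, 1 became 0 with either other floor, without a floor, with the descriptions' groups and without those arrays. In drug control against control pools, 1 became 0 under 7 settings (lower floor, no floor, quantile normalization, no filter, replicate block, descriptions, without those arrays). The difference between both ischemia responses had 1 call without the filter, Aldh1a3. Over both drug arms, 46 became 19 with the scale block and 22 without those arrays. Single brains against ischemic pools had 14, which became 6 with the lower floor, 4 without a floor, 37 without the filter, 86 with the descriptions' groups and 9 without those arrays. Against treated ischemic pools 4 became 2 with either other floor, 0 without a floor and 2 without the filter.

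Leaving out 1 array gave 1 (without ischemic pool 1) to 19 calls in ischemic against control pools, 1 (without drug control pool 3) to 6 in treated ischemic against drug control pools, 0 to 0 in treated ischemic against ischemic pools, 0 to 2 in drug control against control pools, 0 to 0 for the difference between both responses and 30 to 44 over both arms. For single brains it gave 3 (without ischemic pool 3) to 14 against ischemic, 1 to 33 (without treated ischemic pools 2 and 3 in turn) against treated ischemic and 51 (without drug control pool 3) to 148 against drug control pools. The causes were not tested. The replicate block, run for the 6 comparisons of pools, changed no call of a member there.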
